A study of Mus musculus with 81 samples.

Results

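Microglia are the resident macrophages of the brain. The cells described here came from adult male C57BL/6 mice that were Cx3cr1CreERT2/WT, which means that 1 allele of Cx3cr1, the fractalkine receptor gene of microglia, carried a tamoxifen-inducible Cre recombinase. These mice, called Cre here, had no floxed gene. The treated group had received a 0.2% cuprizone diet for 5 weeks before sacrifice and was sorted as negative for the surface proteins Clec7a, CD229 (encoded by Ly9) and CD11c (encoded by Itgax), and it is called Clec7a-negative below. The control group had received a regular diet and was sorted as CD44 low, CD45 low and CD11b low, with no gate on Clec7a, CD229 or CD11c, and it is called baseline below. All columns of the 5-week count table that carry these labels were taken, 3 libraries in each group and 6 of the 81 libraries in the series.

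Groups used beside them were further gates of Cre mice on the same diet, and the 3 baseline and 2 Clec7a-negative libraries of Cx3cr1CreERT2/WT::Mef2afl/fl mice, called Mef2aKO by the labels. There were also 3 Mef2aKO baseline libraries sorted as CD229-negative and CD11c-negative, and 3 baseline and 3 CD229-negative CD11c-negative libraries of WT mice without the Cre allele, the last after 4 weeks of cuprizone. Each library was made from cells of 2 to 6 pooled brains, and the labels do not say that libraries of a group came from separate sets of animals, so p-values measure only the spread between these libraries. Whether and when tamoxifen was given is not stated in the sources used here. The isolation buffer held flavopiridol, which blocks transcription, and sodium butyrate, which blocks histone deacetylases. The comparison changes diet and gate together, and it cannot tell them apart. The series also holds 2 libraries of Cre microglia labelled whole after 5 weeks of cuprizone, which were not used here.

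Cuprizone is a copper chelator that kills oligodendrocytes, the myelin-forming cells of the brain, and microglia then take up the myelin debris. In this setting many microglia leave their homeostatic state and switch on genes for lipid handling, lysosomes and cell surface receptors, a state often called disease-associated. Clec7a, a lectin receptor, and CD11c, an integrin chain, are among the proteins used to sort such cells, and CD229 is an adhesion receptor of immune cells. The treated cells described here were sorted as negative for all 3 proteins, and the baseline cells were not gated on them.

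The 6 libraries held between 9427230 and 11375186 counted reads. They carried the defining genes of microglia at high levels per transcript length, with P2ry12, an ADP receptor, at 667 RPKM (CPM per kilobase of transcript) in baseline cells and 521 RPKM in Clec7a-negative cells. Baseline library 3 stood apart from the other baseline libraries. Its counts differed from those of baseline libraries 1 and 2 by 9.34 and 7.23 times counting noise, against 4.14 between libraries 1 and 2 and 2.92 to 4.21 within the Clec7a-negative group. Among genes of at least 5 CPM in the higher libraries, 15 were more than 3-fold below both other baseline libraries there, and 4 were more than 3-fold above both. The first set included the macrophage receptor Mrc1 and the class II gene H2-Aa, and the second consisted of Fosb, Hspa1a, Hspa1b and 2900060B14Rik. For the main genes described below on which it stands apart, fold changes without this library are given as well.

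Levels below are CPM, which are reads scaled to the TMM-normalised library size, in the order of libraries 1, 2 and 3. Fold changes are log2 values ± SE of Clec7a-negative over baseline. A gene is said to rise or fall only where edgeR's quasi-likelihood test gave a Benjamini-Hochberg adjusted p under 0.05. The SE is the size of the log2 value divided by the square root of the F statistic of that test. For genes with few reads it can be smaller than counting error alone. Of 13204 genes tested, 3808 passed (28.8%). Of these, 2052 were higher (15.5%) and 1756 lower (13.3%) in Clec7a-negative cells. Counts from the gene lists below are to be read beside these shares. The 3 libraries of each group did not overlap for 5138 genes (38.9%). The median log2 fold change of all genes tested was -0.01.

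The rises were larger than the falls. At least 2-fold higher were 685 genes, against 104 at least 2-fold lower, and 167 and 14 genes reached 8-fold. A change of under 1.5-fold was found for 2453 of the 3808 genes. Most of the 2-fold higher genes stayed at low levels, since 616 of the 685 reached a mean of 1 CPM in Clec7a-negative cells, 285 reached 10 CPM, 40 reached 100 CPM and 1, Egr1, reached 1000 CPM. Together they took 0.472% to 0.679% of the reads in baseline libraries (0.56% ± 0.107, SD, n = 3) and 2.03% to 2.22% in Clec7a-negative libraries (2.14% ± 0.1, SD, n = 3).

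Among the strongest rises were those of Fn1, Cspg4, Spp1 and Ch25h. Fn1, which encodes fibronectin and lies on chromosome 1 from 71585473 to 71653234 (mm10), stood at 1.61, 1.13 and 0.487 CPM in baseline cells. It stood at 557, 750 and 827 CPM in Clec7a-negative cells (9.35 ± 0.29, adjusted p = 5.82e-22). Cspg4, the chondroitin sulfate proteoglycan NG2 (chromosome 9, 56865104 to 56899870), was at 0.758, 0.658 and 0.682 CPM and then at 86.1, 104 and 117.7 CPM (7.17 ± 0.17). Both genes were near 1 CPM in every baseline library and far above it in every Clec7a-negative library. Spp1, the secreted phosphoprotein osteopontin, was at 4.84, 2.26 and 0.975 CPM and then at 103.7, 139 and 141.7 CPM (5.56 ± 0.21). Ch25h, which makes 25-hydroxycholesterol, was at 3.13, 1.32 and 0.682 CPM and then at 42.4, 59.8 and 62.2 CPM (4.99 ± 0.25).

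Some genes had almost no reads at baseline, so that their size of change is known only roughly. Fabp5, a fatty acid carrier, had 2 reads over the baseline libraries and 272 over the Clec7a-negative libraries, a ratio of 131 with an exact 95% counting interval of 35.9 to 1090. Lgi2, a secreted leucine-rich repeat protein, had 2 and 437 reads, a ratio of 210 with an interval of 57.9 to 1740. These intervals cover counting error only. Further rises in this class were those of Hpse, the heparan sulfate-cleaving enzyme heparanase (4.85 ± 0.27), Apoc1, an apolipoprotein (5.39 ± 0.40), Ctla2a, a cysteine protease inhibitor (5.70 ± 0.39), Baiap2l2, a membrane-curving adaptor (5.30 ± 0.29), and Ptpn7, a tyrosine phosphatase of blood cells (4.64 ± 0.35). The mitotic motor gene Kif4 rose by 5.36 ± 0.42 and Shcbp1, an adaptor of dividing cells, by 4.71 ± 0.51.

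Counted in reads, other genes led. The largest gains were those of Egr1, Apoe, Fn1, Fos, Jun, Ctsd, Sdc3, Lgals3bp, Zfp36 and Rnf213. Apoe, the apolipoprotein that carries lipid between brain cells, was at 178, 202.5 and 141.8 CPM and rose to 810, 932 and 917 CPM (2.35 ± 0.11, adjusted p = 4.22e-18). Sdc3, a heparan sulfate proteoglycan, was at 170, 164 and 167.5 CPM and then at 520, 585 and 610 CPM (1.77 ± 0.07), with the 3 libraries of each group close together. Lgals3bp, a secreted galectin partner, was at 187, 198 and 196 CPM and then at 520, 617 and 601 CPM (1.58 ± 0.08). Rnf213, a large interferon-linked ubiquitin ligase, rose by 0.91 ± 0.08. Per transcript length, Apoe rose from 130 to 664 RPKM, and Ctsd, a lysosomal protease, from 920 to 1136 RPKM. The Ctsd call ended in the fits without Clec7a-negative library 2 (adjusted p = 0.0914) and without baseline library 1 (adjusted p = 0.0507).

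**Figure D1:**
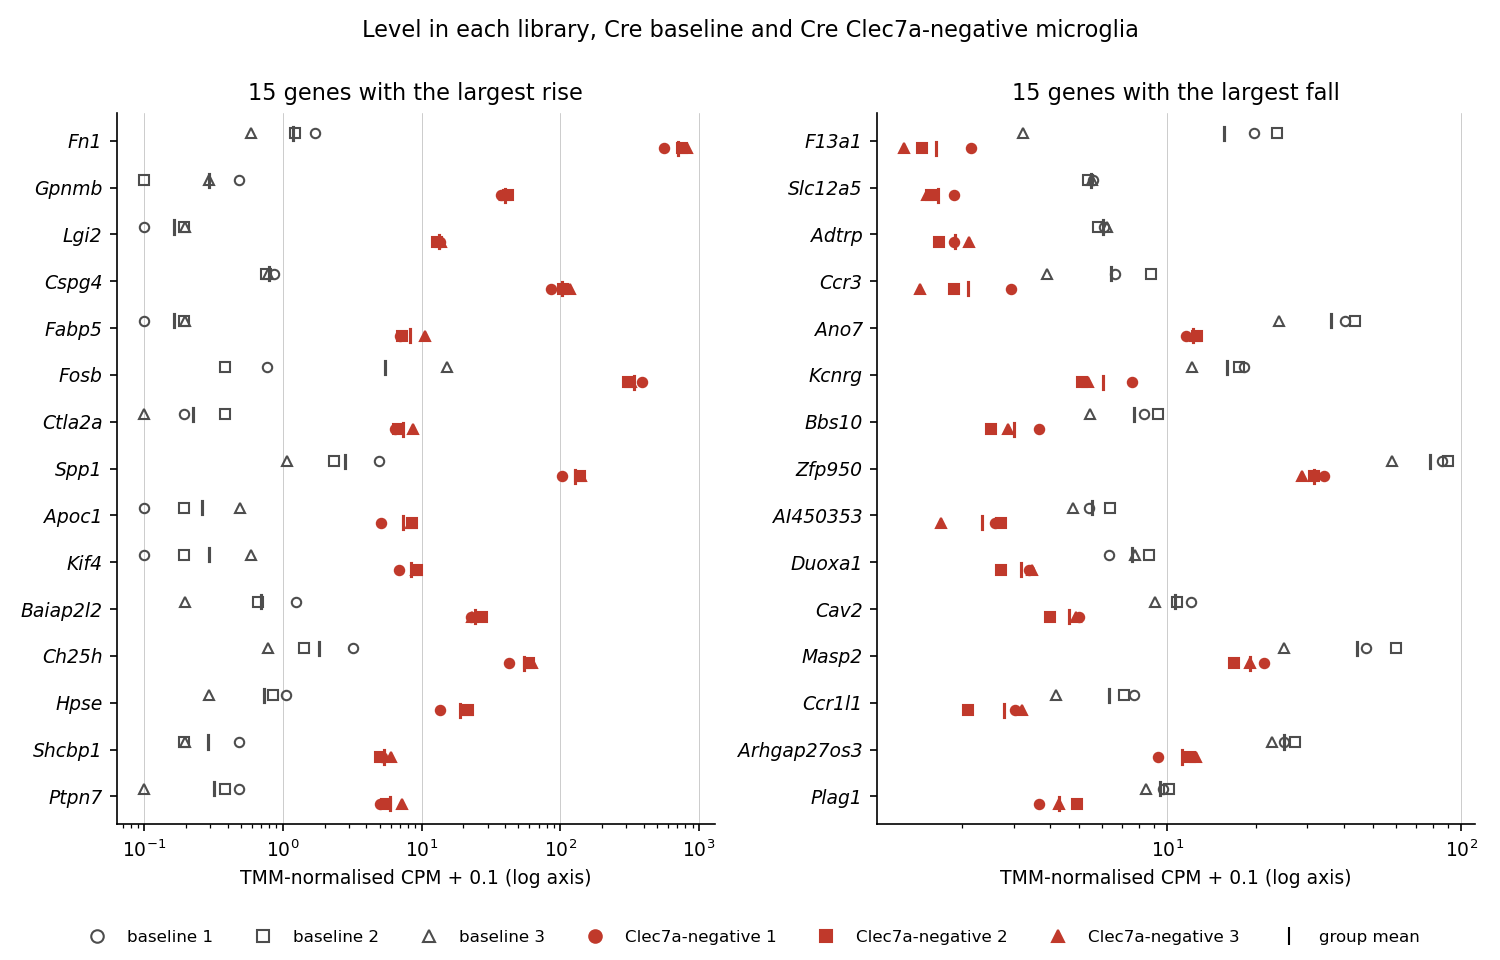
Levels of the genes with the largest rises and falls in each of the 6 libraries, as CPM + 0.1 on a log axis. Points are libraries of the baseline and Clec7a-negative groups and bars are group means. Fn1 and Cspg4 sit near 1 CPM in every baseline library and above 80 CPM in every Clec7a-negative library.

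The falls were smaller and spread over genes of several kinds. Ano7, a member of the anoctamin membrane protein family, was at 40.3, 43.5 and 23.9 CPM in baseline cells and at 11.5, 12.5 and 12.3 CPM in Clec7a-negative cells (-1.57 ± 0.19, adjusted p = 6.01e-08). Zfp950, a zinc finger gene, was at 85.8, 89.9 and 58.2 CPM and then at 33.9, 31.6 and 28.6 CPM (-1.32 ± 0.14). Slc12a5, a potassium-chloride cotransporter, was at 5.5, 5.26 and 5.46 CPM and then at 1.78, 1.47 and 1.43 CPM (-1.78 ± 0.39). Baseline library 3 was the lowest baseline library for the first 2 of these genes and not for Slc12a5. The groups did not overlap for any of them. Adtrp, a hydrolase of fatty acid esters, fell by 1.72 ± 0.36, and Ccr3, a chemokine receptor, by 1.67 ± 0.43. Kcnrg, a potassium channel regulator, fell by 1.42 ± 0.23, and Cav2, a caveolin of membrane pits, by 1.21 ± 0.20. Masp2, a serine protease of the lectin pathway of complement, fell by 1.21 ± 0.22, with 47.3, 59.9 and 25 CPM at baseline and 21.2, 16.8 and 19 CPM in Clec7a-negative cells.

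RNA of the proteins used for the gate was examined next. Clec7a RNA was at 33.7, 34.6 and 27.7 CPM in ungated baseline cells and at 143, 177 and 160 CPM in cells sorted as negative for the protein (2.32 ± 0.12, adjusted p = 5.44e-17). It was at 527, 588 and 561 CPM in the Clec7a-positive CD229-negative libraries of the same diet group. Itgax was at 24.2, 30.9 and 20.4 CPM at baseline, 81.7, 84.3 and 90.3 CPM in Clec7a-negative cells and 334, 335 and 309 CPM in Clec7a-positive CD11c-negative cells (Clec7a-negative over baseline 1.76 ± 0.14). Ly9 was at 53.6, 72.1 and 56.2 CPM at baseline and at 97.2, 100.3 and 104 CPM in Clec7a-negative cells (0.73 ± 0.14), and its highest levels, 301, 298 and 275 CPM, were in the CD229-positive CD11c-negative libraries. RNA of all 3 gate genes was higher in the negatively gated treated cells than in ungated baseline cells. In these counts a larger share of cells with the RNA and more RNA per cell cannot be told apart, and the same holds, in either direction, for every change described here.

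Genes of the disease-associated state rose in most cases. This list and those below were chosen with earlier results of these data known, so their counts are description only. Of 24 genes tested, 19 rose and 0 fell, and the median log2 fold change was 2.27 against -0.01 over all genes. Lpl, lipoprotein lipase, was at 41.4, 25.9 and 35.1 CPM and then at 297, 353 and 331 CPM (3.26 ± 0.13). Cst7, the protease inhibitor cystatin F, was at 8.82, 9.12 and 7.89 CPM and then at 140.1, 184 and 175 CPM (4.27 ± 0.18). Gpnmb, a glycoprotein of lipid-laden macrophages, was at 0.379, 0 and 0.195 CPM and then at 37.2, 41.9 and 39.6 CPM (7.60 ± 0.37). All treated libraries were above all baseline libraries for each of these genes. As Gpnmb had almost no reads at baseline, the size of its change is known only roughly. The receptor kinase gene Axl rose by 3.13 ± 0.14, the growth factor genes Igf1 and Csf1 by 2.60 ± 0.21 and 2.03 ± 0.08, and Lgals3, which encodes galectin-3, by 3.10 ± 0.16. Igf1 was at 8.91, 6.11 and 1.46 CPM at baseline, and its rise was 2.16 without baseline library 3. The transporter gene Ank rose by 1.34 ± 0.09 and the actin-capping gene Capg by 1.63 ± 0.15.

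The 5 members that did not pass were Trem2, Tyrobp, Cd9, Cd68 and Atp6v0d2. Trem2, the lipid-sensing receptor on which this state depends, was at 347, 389 and 398 CPM at baseline and 390, 425 and 394 CPM in Clec7a-negative cells (0.09 ± 0.09, adjusted p = 0.46). Tyrobp, its signalling partner DAP12, differed by 0.16 ± 0.09 and Cd68, a lysosomal glycoprotein, by 0.17 ± 0.08. Cd9, a tetraspanin, differed by 0.14 ± 0.10. The groups overlapped for Trem2, Tyrobp, Cd9 and Atp6v0d2, and did not for Cd68 or the 19 genes that passed. Atp6v0d2, a proton pump subunit, had 3 reads at baseline and 11 after cuprizone, a ratio of 3.53 with a counting interval of 0.933 to 19.7. Dkk2, a Wnt pathway modulator that passed, had 1 and 12 reads, a ratio of 11.6 with an interval of 1.71 to 494. Its call ended without Clec7a-negative library 3 (adjusted p = 0.157), baseline library 2 (adjusted p = 0.102) or baseline library 3 (adjusted p = 0.0759), and its fitted value rose to 4.89 without baseline library 1. Signalling genes downstream of TREM2 and DAP12 were tested as well, with 1 of 15 higher and 4 lower. The lower count was 2 without baseline library 1 or Clec7a-negative library 3, and the higher count was 3 without baseline library 3 and 2 without Clec7a-negative library 1. Lat2, an adaptor protein, rose by 0.45 ± 0.08, while Pik3cg, a kinase subunit, was at 642, 570 and 581 CPM and fell to 441, 431 and 430 CPM (-0.46 ± 0.05).

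Clec7a-negative cells stood between baseline and the other gates for the summed level of the disease-associated list. The sum was 1866 ± 82.6 CPM (SD, n = 3) at baseline, 4311 ± 332 CPM in Clec7a-negative cells, 10970 ± 614 CPM in Clec7a-positive cells, 12320 ± 611 CPM with CD229 and 13910 ± 641 CPM with CD229 and CD11c. Every library of a gate lay above every library of the gate before it; the closest were the Clec7a-positive and CD229-positive groups, at 10330 to 11550 and 11650 to 12840 CPM. No test was run on these sums, and several members also mark the gated cells.

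Interferon response genes on the list all rose. As the list was chosen with earlier results of these data known, its counts are no independent support. Type I interferon signals through a complex that holds STAT2 and IRF9 and binds a short repeated element in the promoters of antiviral genes. All 30 genes on the list passed the test as higher, the libraries of the groups did not overlap for any of them, and the median log2 fold change was 1.83. Leaving out any library left all 30 higher, and with baseline library 3 as the only control 29 were higher. The sum of the list was 934, 916 and 989 CPM at baseline and 1915, 2011 and 2302 CPM in Clec7a-negative cells.

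Promoters of the members are shown because the genes moved together. RefSeq promoter windows for GRCm38.p6, from 250 bases before to 50 after the gene start, were matched for 21 of the 30 genes, and the letters GAAANNGAA on either strand were found in 12 of them (57.1%). The letters were in 9.76% of all 27025 promoters of that length. As fewer than 80% of the list had a window, its share is no check of the list. Stretches from 6 of these promoters follow, on the strand of the gene from 5′ to 3′, with matches on either strand in capitals.
Ifit1, chr19:34640765-34640824, plus strand: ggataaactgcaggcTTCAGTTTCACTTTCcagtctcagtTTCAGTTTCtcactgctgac
Isg15, chr4:156200852-156200911, minus strand: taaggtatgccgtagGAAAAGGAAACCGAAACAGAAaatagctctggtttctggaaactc
Oas1a, chr5:120907526-120907585, minus strand: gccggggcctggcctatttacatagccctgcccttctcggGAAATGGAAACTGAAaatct
Rsad2, chr12:26456527-26456586, minus strand: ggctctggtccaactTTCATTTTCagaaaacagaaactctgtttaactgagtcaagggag
Ifit3, chr19:34583366-34583445, plus strand: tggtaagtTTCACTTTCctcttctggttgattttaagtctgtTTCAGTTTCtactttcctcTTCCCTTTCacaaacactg
Ifit3b, chr19:34607762-34607841, plus strand: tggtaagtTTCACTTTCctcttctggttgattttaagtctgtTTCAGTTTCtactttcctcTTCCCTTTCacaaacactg
In Ifit1, Isg15 and Oas1a matches overlap, since neighbouring repeats share bases. The stretches of Ifit3 and Ifit3b are identical letter for letter. Reads of these close copies can be counted for either gene, so their separate levels are uncertain. A match describes letters, not a bound factor.

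Antiviral effectors were among the members. Oasl2, an oligoadenylate synthetase-like protein, was at 13.6, 13.9 and 12.7 CPM and then at 67.2, 77 and 110.8 CPM (2.67 ± 0.15, adjusted p = 8.86e-16). Rsad2, the antiviral enzyme viperin, was at 5.21, 4.7 and 6.53 CPM and then at 25.4, 30 and 35.4 CPM (2.47 ± 0.17). Ifit1, an RNA-binding effector whose promoter holds 3 of the matches above, was at 5.59, 4.7 and 4.87 CPM and then at 18.6, 18.7 and 20.1 CPM (1.92 ± 0.16). In each case the lowest treated library was more than 3 times the highest baseline library. Isg15, a ubiquitin-like modifier, rose by 1.84 ± 0.27, Oas1a by 2.43 ± 0.14, Ifi27l2a, a mitochondrial interferon-induced protein, by 3.44 ± 0.21, and Zbp1, a nucleic acid sensor, by 2.58 ± 0.17. Among the transducers, Stat2 rose by 0.93 ± 0.07 and Irf9 by 0.62 ± 0.06, and the amplifying factor Irf7 rose by 2.25 ± 0.17. Each effector named here changed by more than Stat2 and Irf9.

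Genes of antigen presentation were counted by class, and the classes were not compared by a test. Of 14 class I genes, which present peptides from inside the cell, 10 rose and 0 fell, with a median of 0.42. Nlrc5, the transactivator of class I genes, was at 22, 22.3 and 22.8 CPM and then at 70.6, 68.3 and 85.9 CPM (1.75 ± 0.09). Tap1, a subunit of the peptide transporter, rose by 0.66 ± 0.07 and B2m, the common light chain, by 0.39 ± 0.09. H2-K1 rose by 0.96 ± 0.10 and H2-D1 by 0.94 ± 0.10, though reads of class I heavy chains can be split between close paralogs. Of 8 class II genes, which present material taken up from outside, 0 passed edgeR's test in either direction, 3 had an unadjusted p under 0.05 and DESeq2 called 1. Their sum was 484, 454 and 287 CPM at baseline and 376, 370 and 415 CPM in Clec7a-negative cells, so that only baseline library 3 lay below the treated libraries. Cd74, the class II chaperone, was at 137.4, 120.3 and 50.9 CPM and then at 97.6, 87.5 and 99.4 CPM (-0.12 ± 0.19, adjusted p = 0.68). Without baseline library 3 Cd74 fell by 0.44 (adjusted p = 0.00669) and 5 of the 8 genes fell. The class II count was 1 lower without Clec7a-negative library 2 or 3, and 1 higher without Clec7a-negative library 1. With baseline library 3 as the only control, a fit chosen after seeing the data, Cd74 rose by 0.93 (adjusted p = 0.000385) and 4 rose. The direction of the class II genes thus changed with the baseline libraries used.

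Cytokine and chemokine genes rose in 15 of 20 cases, and 0 fell. The median log2 fold change was 1.83. Ccl3 and Ccl4 are chemokines that attract leukocytes. Ccl3 was at 27, 23.4 and 28.2 CPM and then at 135.9, 156 and 125 CPM (2.40 ± 0.15). Ccl4 was at 19.3, 16.3 and 19.2 CPM and then at 103.7, 112 and 91.8 CPM (2.49 ± 0.15). Tnf, the cytokine tumour necrosis factor, was at 14, 10.2 and 11.7 CPM and then at 55.7, 49.5 and 49.8 CPM (2.11 ± 0.18). The groups were clearly apart for all of them. Ccl2, a monocyte attractant, rose by 2.65 ± 0.25, the interferon-linked Cxcl10 by 2.61 ± 0.20, Il1rn, the interleukin-1 receptor antagonist, by 2.93 ± 0.33, and Il1b, an inflammatory cytokine, by 1.01 ± 0.16. Cxcl2, a neutrophil attractant, had 0 reads at baseline and 18 after cuprizone, which is at least 5.78-fold higher against a floor of 3 reads over the baseline group. Its call ended without Clec7a-negative library 2 or 3 (adjusted p = 0.0692 and 0.061) or baseline library 1, 2 or 3 (adjusted p = 0.0829, 0.0802 and 0.0566). Il6, a cytokine of the acute phase, was at 8.82, 8.93 and 8.67 CPM and then at 7.22, 5.98 and 5.04 CPM (-0.54 ± 0.22, adjusted p = 0.061), and passed without Clec7a-negative library 1 (-0.66, adjusted p = 0.0473). Tgfb1 differed by -0.14 ± 0.07 and Il18 by -0.02 ± 0.12, and neither passed.

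Of 14 genes tested of the NF-kB feedback circuit, 7 rose and 0 fell. Nfkbiz, an inducible nuclear inhibitor, was at 46.9, 52.9 and 46.3 CPM and then at 157.2, 157.5 and 153.7 CPM (1.68 ± 0.13). Nfkbia, the main cytoplasmic inhibitor, rose by 1.04 ± 0.13. The subunit genes Nfkb1 and Rel did not pass, with 0.12 ± 0.07 and -0.14 ± 0.08, while Nfkb2 and Relb of the second branch rose by 0.58 ± 0.08 and 0.52 ± 0.09.

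Immediate early genes, which cells switch on within minutes of a stimulus and which handling of cells can also raise, were higher in 20 of 22 cases. Their median log2 fold change was 1.83. The baseline libraries differed widely in these genes. Fos, a subunit of the AP-1 transcription factor, was at 98.1, 6.2 and 286 CPM at baseline and at 740, 686 and 686 CPM in Clec7a-negative cells (2.44 ± 0.46). Egr1, a zinc finger factor, was at 156.4, 14.6 and 449 CPM and then at 1264, 1387 and 1406 CPM (2.71 ± 0.50). Fosb was at 0.664, 0.282 and 15.1 CPM and then at 388, 307 and 322 CPM (6.01 ± 0.52). Baseline library 2 was the lowest and library 3 the highest for all 3 genes, and the treated libraries lay close together above them. Without baseline library 3 the fold changes were 3.75 for Fos, 3.98 for Egr1 and 9.45 for Fosb. The sum of the list ran from 1647 to 3894 CPM at baseline and from 7179 to 7615 CPM in Clec7a-negative cells. With baseline library 3 as the only control 19 genes were still higher. The part of handling in these values was not tested.

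Other members had steady baselines. Klf4, a Krüppel-like factor, was at 3.32, 4.89 and 5.75 CPM and then at 92, 50 and 67.2 CPM (3.91 ± 0.30). Atf3, a stress-induced factor, was at 21.9, 28.4 and 25 CPM and then at 158.6, 156 and 126 CPM (2.55 ± 0.15). Egr2, a zinc finger factor of the Egr family, was at 4.55, 2.73 and 2.73 CPM and then at 24.1, 25.6 and 21.8 CPM (2.83 ± 0.15). For these 3 genes the spread over baseline libraries was small beside the change. Maff, a small Maf factor, rose by 2.98 ± 0.20 and Ier3, an early response gene, by 2.46 ± 0.21. Fosl2 was the only member called lower (-0.28 ± 0.10, adjusted p = 0.035), a call that ended in 5 of the 6 fits without 1 library and remained only without baseline library 3. Among the Cre groups, the sum of the immediate early genes was highest in Clec7a-negative cells, at 7394 ± 218 CPM (SD, n = 3). It was 5478 ± 587 CPM in Clec7a-positive cells, 4327 ± 90.3 CPM with CD229 and 4797 ± 553 CPM with CD229 and CD11c. The lowest Clec7a-negative sum lay above the highest sum of any other gate, and no test was run on the sums. In the libraries labelled Mef2aKO the sum was 8910 and 8823 CPM in Clec7a-negative cells, above every Cre library, and 2480 to 4150 CPM at baseline.

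**Figure D2:**
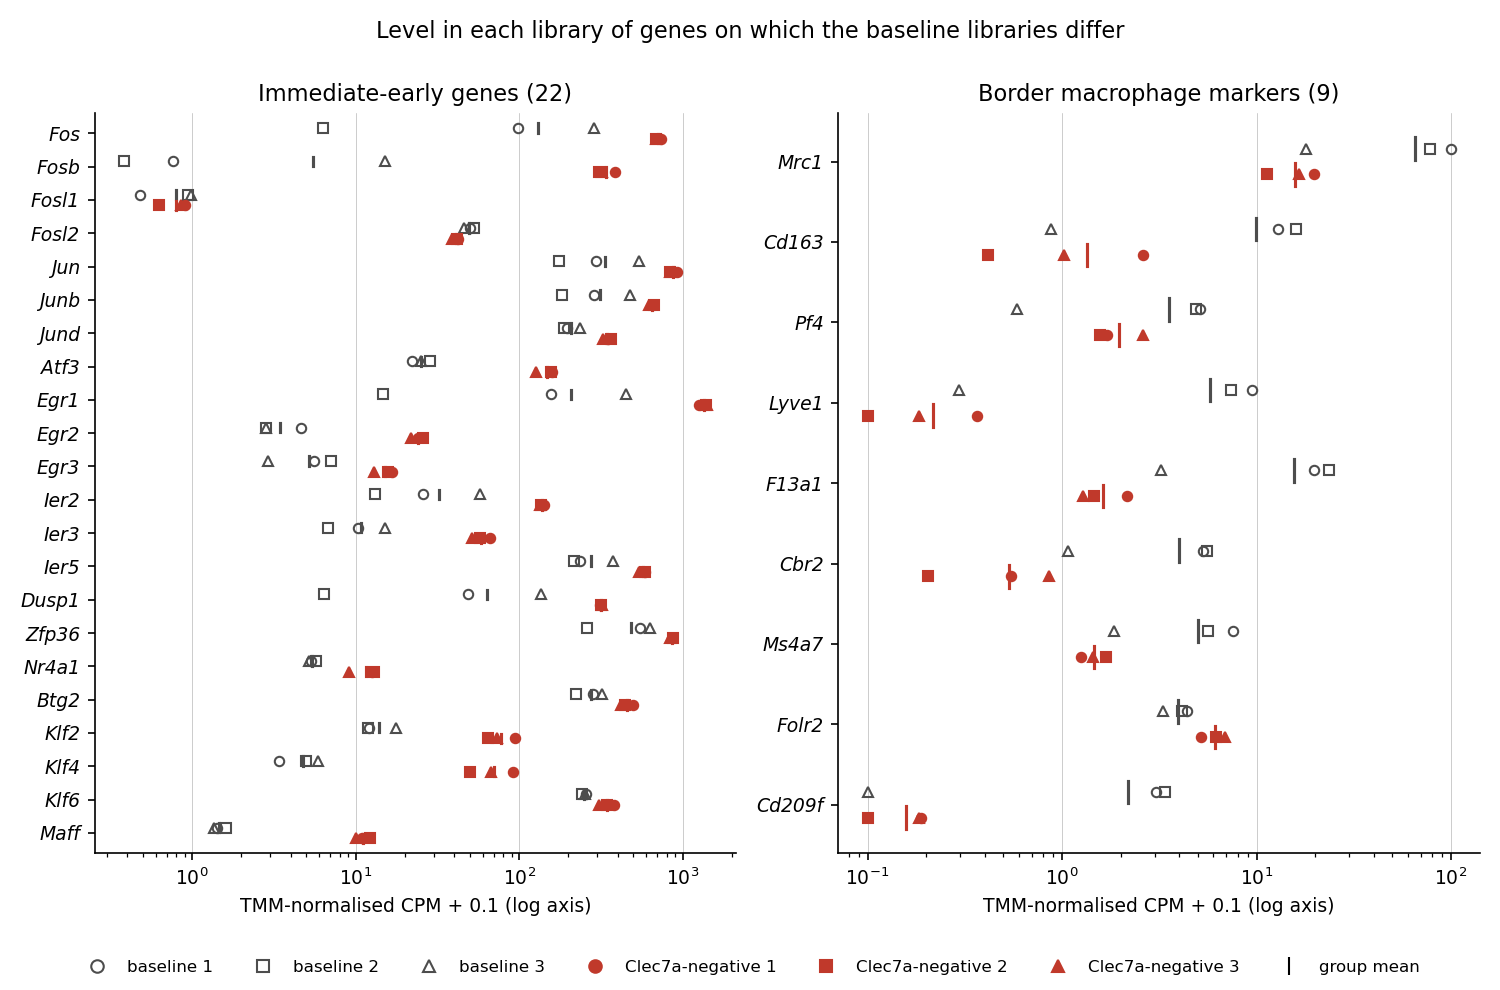
Levels in each of the 6 libraries of the immediate early genes and the markers of border macrophages, as CPM + 0.1 on a log axis, with group means as bars. Baseline library 3 is the highest baseline library for Fos, Egr1 and Fosb and the lowest for Mrc1 and Lyve1. The 3 Clec7a-negative libraries lie close together for Fos, Egr1 and Fosb.

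Cell cycle genes on the list were higher throughout. This list too was chosen with earlier results of these data known, so its counts are no independent support. All 30 members rose, with groups that did not overlap and a median of 1.91. Mki67, the proliferation antigen, was at 8.06, 6.86 and 16.7 CPM and then at 132.5, 141 and 142 CPM (3.72 ± 0.21, adjusted p = 1.42e-15). Top2a, the topoisomerase of dividing cells, was at 3.41, 3.67 and 9.36 CPM and then at 65.5, 61.9 and 59.2 CPM (3.51 ± 0.22). Rrm2, a subunit of the enzyme that makes deoxynucleotides, was at 1.14, 0.376 and 1.66 CPM and then at 14.2, 18.6 and 17.5 CPM (3.98 ± 0.31). Baseline library 3 was the highest baseline library for each of them and still far below the treated libraries. Mitotic genes such as Ccnb1 (3.61 ± 0.43) and Bub1 (3.38 ± 0.27) changed more than genes of the replication helicase, among them Mcm3 (0.42 ± 0.09), Mcm4 (0.59 ± 0.12) and Mcm7 (0.77 ± 0.10). Leaving out 1 library gave 29 or 30 higher genes, and baseline library 3 as the only control gave 25. The sum of the list was 304 ± 32.6 CPM (SD, n = 3) at baseline and 838 ± 59 CPM in Clec7a-negative cells. It was 1187 ± 75.8 CPM in Clec7a-positive cells and 825 ± 128 CPM in the CD11c-positive gate, so that Clec7a-negative cells overlapped the last of these.

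Genes of energy metabolism and protein synthesis showed smaller shifts. Of 19 glycolysis genes 12 rose and 0 fell, with a median of 0.40. Pgk1, a kinase of the lower pathway, was at 16.1, 17.5 and 20.1 CPM and then at 33.5, 34.4 and 40.3 CPM (1.01 ± 0.11). Tpi1, a triose isomerase, rose by 1.00 ± 0.10, Pkm, pyruvate kinase, by 0.91 ± 0.11, and the lactate exporter gene Slc16a3 by 0.72 ± 0.07. Hk1, a hexokinase, differed by -0.09 ± 0.12 and did not pass. Among all genes tested 15.5% rose, and genes of oxidative phosphorylation did not exceed that share in the main fit. Of 30 such genes 4 rose, among them Ndufa1, Ndufa8 and Cox4i1, and 0 fell, with a median of 0.14. That count was 11 without baseline library 3 or without Clec7a-negative library 1, 2 without Clec7a-negative library 2 or 3 or baseline library 1, and 0 with baseline library 3 as the only control. Of 30 ribosomal protein genes 29 rose, with a median of 0.47 and a range from 0.28 to 0.81. Their sum was 1826, 2131 and 2273 CPM at baseline and 2670, 3180 and 2853 CPM in Clec7a-negative cells. The count of 29 became 15 without baseline library 1, 16 without Clec7a-negative library 2 and 4 with baseline library 3 as the only control.

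Lipid genes were counted in separate lists for synthesis and for export and storage, with no test between the lists. Of 24 genes of cholesterol synthesis, 1 rose and 2 fell, and the sum was 539, 521 and 509 CPM at baseline and 501, 496 and 522 CPM after cuprizone. Hmgcs1, an early enzyme of the pathway, differed by 0.00 ± 0.08 and did not pass. The gene that rose was Pmvk, a mevalonate pathway kinase (0.74 ± 0.21), a call that ended without baseline library 1 (adjusted p = 0.0755). Tm7sf2 and Msmo1, enzymes of the late steps, fell by 0.44 ± 0.14 and 0.34 ± 0.11. The Tm7sf2 call ended without Clec7a-negative library 2 (adjusted p = 0.092). The Msmo1 call ended without Clec7a-negative library 3 or baseline library 1 or 2 (adjusted p = 0.105, 0.0828 and 0.0591). Of the list, 8 of 24 genes did not overlap between groups, beside a background of 38.9%. The count of rises was 0 without baseline library 1 and 2 without baseline library 3. The count of falls was 1 without baseline library 1 or 2 or Clec7a-negative library 3, and 3 without baseline library 3.

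Of 23 genes of cholesterol export and lipid storage 11 rose and 3 fell, with a median of 0.13. The apolipoprotein genes changed most. Apoc1 was at 0, 0.094 and 0.39 CPM and then at 4.99, 8.39 and 8.31 CPM. Apoc2 was at 0.19, 0.094 and 0.195 CPM and then at 4.19, 2.2 and 4.37 CPM (4.41 ± 0.42). Both had almost no reads at baseline, so the size of their change is known only roughly. Apoc4, the neighbour of Apoc2, with which it can share reads, had 1 and 72 reads, a ratio of 69.3 with an interval of 12.1 to 2780. Fabp3, a fatty acid carrier, had 3 and 43 reads, a ratio of 13.8 with an interval of 4.42 to 69.5, and all of its baseline reads lay in library 2. Without that library its fitted fold change was 6.70 against 3.62 in all libraries. Plin2, a coat protein of lipid droplets, was at 25.1, 25.2 and 31.7 CPM and then at 53, 57.6 and 63.9 CPM (1.09 ± 0.12), and Nceh1, a cholesteryl ester hydrolase, was at 25.7, 24.3 and 24.2 CPM and then at 52.3, 47.6 and 54.1 CPM (1.05 ± 0.10). Abcg1, a sterol exporter, rose by 0.39 ± 0.06, and Abca1, another, was at 1090, 1029 and 1019 CPM and then at 1151, 1176 and 1103 CPM (0.13 ± 0.07, adjusted p = 0.17). Npc1, which exports cholesterol from lysosomes, fell by 0.28 ± 0.06, and Acsl1, an acyl-CoA synthetase, by 0.30 ± 0.08.

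Lysosomal genes shifted slightly upwards, with 11 of 26 higher, 0 lower and a median of 0.10. Gla, an alpha-galactosidase, had the largest change, from 6.16, 8.74 and 7.41 CPM to 16.8, 19.1 and 20.9 CPM (1.35 ± 0.15). Gusb, a beta-glucuronidase, was at 236, 257.5 and 264 CPM and then at 337, 391 and 370 CPM (0.53 ± 0.08). The cathepsin genes Ctsz, Ctsl and Ctsb rose by 0.42 ± 0.10, 0.38 ± 0.09 and 0.30 ± 0.08, while Ctss and the membrane protein genes Lamp1 and Lamp2 did not pass (0.08 ± 0.09, 0.07 ± 0.08 and -0.04 ± 0.08). Fits without 1 library gave 8 to 12 higher genes, and baseline library 3 as the only control gave 6. Of 15 genes of the proton pump that acidifies lysosomes 3 rose, beside 15.5% of all genes tested. These were Atp6v1a, Atp6v1b2 and Atp6v1d, which rose by 0.18 to 0.20. The count was 0 without Clec7a-negative library 2 or without baseline library 2, 1 without baseline library 3, 2 without baseline library 1 or Clec7a-negative library 3, and 5 without Clec7a-negative library 1.

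Genes of the matrix and its proteases rose in 9 of 17 cases and fell in 2. Adamts1, a secreted metalloprotease, was at 8.82, 7.52 and 12.1 CPM and then at 141.5, 128.1 and 134.8 CPM (3.83 ± 0.18). Plaur, the urokinase receptor, was at 13, 14.3 and 12.5 CPM and then at 33.1, 48.7 and 38 CPM (1.58 ± 0.11). Mmp12, the macrophage elastase, rose by 3.34 ± 0.43. Adamtsl2, a matrix protein without protease activity, was at 16.3, 15.7 and 19 CPM and fell to 10.7, 7.76 and 10.2 CPM (-0.83 ± 0.18). The other fall was that of Mmp9, a gelatinase, which had 42 reads at baseline and 2 after cuprizone, a ratio of 21.8 with an interval of 5.67 to 186. Its baseline reads came mostly from libraries 1 and 2, at 1.71 and 2.16 CPM, against 0.097 CPM in library 3.

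Growth factor genes rose in 7 of 14 cases and fell in 1. Vegfa, the vascular growth factor, was at 5.59, 4.98 and 5.75 CPM and then at 29.9, 28.6 and 28.6 CPM (2.42 ± 0.15). Pdgfa, a mitogen of oligodendrocyte precursors, rose by 0.74 ± 0.09, Gas6, a ligand of Axl, by 0.45 ± 0.10, Osm, an interleukin-6 family cytokine, by 0.64 ± 0.14, and Gdf15, a stress-induced factor, by 3.84 ± 0.61. Among complement and Fc receptor genes 4 of 18 rose and 0 fell, beside 15.5% and 13.3% of all genes tested. C3, the central complement component, was at 5.12, 4.51 and 5.46 CPM and then at 24.9, 27.9 and 28.7 CPM (2.43 ± 0.15). Cfb, its partner in the alternative pathway, rose by 2.54 ± 0.34, and C4b by 1.39 ± 0.19. The abundant C1q chains did not pass, with C1qa at 787, 861 and 933 CPM and then at 869, 973 and 888 CPM (0.08 ± 0.09).

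Redox and metal genes moved by less. Of 18 genes of oxidative stress 6 rose and 2 fell. Hmox1, heme oxygenase, rose by 0.56 ± 0.09, and Gclm, a subunit of the enzyme that starts glutathione synthesis, fell by 0.54 ± 0.16, a call that ended without Clec7a-negative library 3 (-0.38, adjusted p = 0.127) and left 1 fall. Cybb, the catalytic subunit of the phagocyte oxidase, was at 27.9, 23.4 and 6.53 CPM and then at 40.1, 38 and 43.3 CPM (1.07 ± 0.23), a change of 0.66 without baseline library 3. Of 12 iron genes 4 rose and 3 fell. The ferritin genes Fth1 and Ftl1, whose proteins store iron, rose by 0.40 ± 0.09 and 0.36 ± 0.09, and Slc40a1, the iron exporter ferroportin, was at 329, 309 and 296 CPM and fell to 221, 231 and 211 CPM (-0.49 ± 0.06). As cuprizone binds copper, copper genes were listed as well. Of 13 tested 3 rose and 0 fell, beside 15.5% and 13.3% of all genes tested. Mt1, a metallothionein, rose by 0.51 ± 0.12 and Atox1, a copper chaperone, by 0.62 ± 0.12. The copper transporter genes Atp7a and Slc31a1 did not pass (-0.01 ± 0.08 and 0.22 ± 0.09), and Slc31a1 passed without baseline library 1 (0.33, adjusted p = 0.0157).

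Of 20 Polycomb genes, whose products place and read repressive histone marks, 3 rose and 4 fell, beside 15.5% and 13.3% of all genes tested. The falls were 2 without Clec7a-negative library 3. Ezh2, the methyltransferase of dividing cells, was at 9.1, 9.87 and 14 CPM and then at 22.9, 21.6 and 24.3 CPM (1.06 ± 0.13), and Phf19, an accessory factor, rose by 2.39 ± 0.33. Ezh1, the related enzyme of resting cells, was at 129.4, 121.8 and 116.1 CPM and then at 124.8, 106.7 and 122.4 CPM (-0.05 ± 0.07). Cbx7, a reader of the mark, fell by 0.43 ± 0.09.

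Homeostatic genes fell little or did not pass. Of 20 tested 8 fell and 0 rose, with a median of -0.17. P2ry13, an ADP receptor, was at 1054, 1042 and 1010 CPM and fell to 745, 760 and 725 CPM (-0.48 ± 0.07, adjusted p = 2.09e-06). P2ry12 was at 1783, 1675 and 1642 CPM and fell to 1373, 1370 and 1241 CPM (-0.36 ± 0.08). Cx3cr1, 1 allele of which carries the Cre gene in all these mice, was at 2052, 1961 and 1924 CPM and fell to 1626, 1666 and 1539 CPM (-0.30 ± 0.07). The groups did not overlap for these genes, and each remained above 700 CPM. Sall1, a transcription factor of microglial identity, fell by 0.24 ± 0.06, Siglech, a sialic acid receptor, by 0.29 ± 0.06, and the fructose transporter gene Slc2a5 by 0.33 ± 0.07. Tmem119 (-0.18 ± 0.08, adjusted p = 0.082), Csf1r (-0.09 ± 0.09) and Fcrls (0.00 ± 0.08) did not pass. In each fit without 1 library 8 genes fell, and with baseline library 3 as the only control 2 fell. The sum over the list was 20510 ± 138 CPM (SD, n = 3) at baseline and 18110 ± 779 CPM in Clec7a-negative cells, and it was 13510 CPM on average in the CD11c-positive gate.

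Genes of the TGF-beta pathway, which keeps microglia in their resting state, fell in 7 of 15 cases and rose in 0, with a median of -0.18. Eng, a co-receptor, was at 339, 316 and 289 CPM and then at 247, 251 and 242 CPM (-0.35 ± 0.07). Itgav, an integrin chain that helps to release the ligand, fell by 0.37 ± 0.08, and Skil and Ski, co-repressors of the pathway, fell by 0.30 ± 0.08 and 0.24 ± 0.06. Tgfbr1, the signalling receptor, fell by 0.26 ± 0.07, a call that ended without Clec7a-negative library 3 (adjusted p = 0.0631) and without baseline library 1 (adjusted p = 0.056). The count of 7 became 4 without baseline library 1 and 0 with baseline library 3 as the only control. Of 22 transcription factors of the lineage 2 rose and 6 fell, beside 15.5% and 13.3% of all genes tested. The falls were 4 without baseline library 1 or Clec7a-negative library 3, and 5 without Clec7a-negative library 2. Bhlhe40, a basic helix-loop-helix factor, was at 1.04, 1.6 and 1.46 CPM and then at 22.5, 31.1 and 28 CPM (4.30 ± 0.22). Hif1a, the hypoxia factor, rose by 0.36 ± 0.09. Maf fell by 0.44 ± 0.10, and by 0.29 without Clec7a-negative library 3, while Spi1 and Irf8 did not pass (-0.02 ± 0.07 and 0.14 ± 0.08). Among purinergic genes, 2 of 9 rose and 2 fell. Only 1 rose in the fits without baseline library 1 or 3 or any 1 Clec7a-negative library, while 3 rose without baseline library 2, and 1 fell without baseline library 2 or Clec7a-negative library 1 or 3. Adora1, an adenosine receptor, rose from 4.46, 5.54 and 4.58 CPM to 15.4, 22 and 20.4 CPM (1.98 ± 0.15), and Entpd1, which degrades extracellular ATP, fell by 0.45 ± 0.06.

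**Figure D3:**
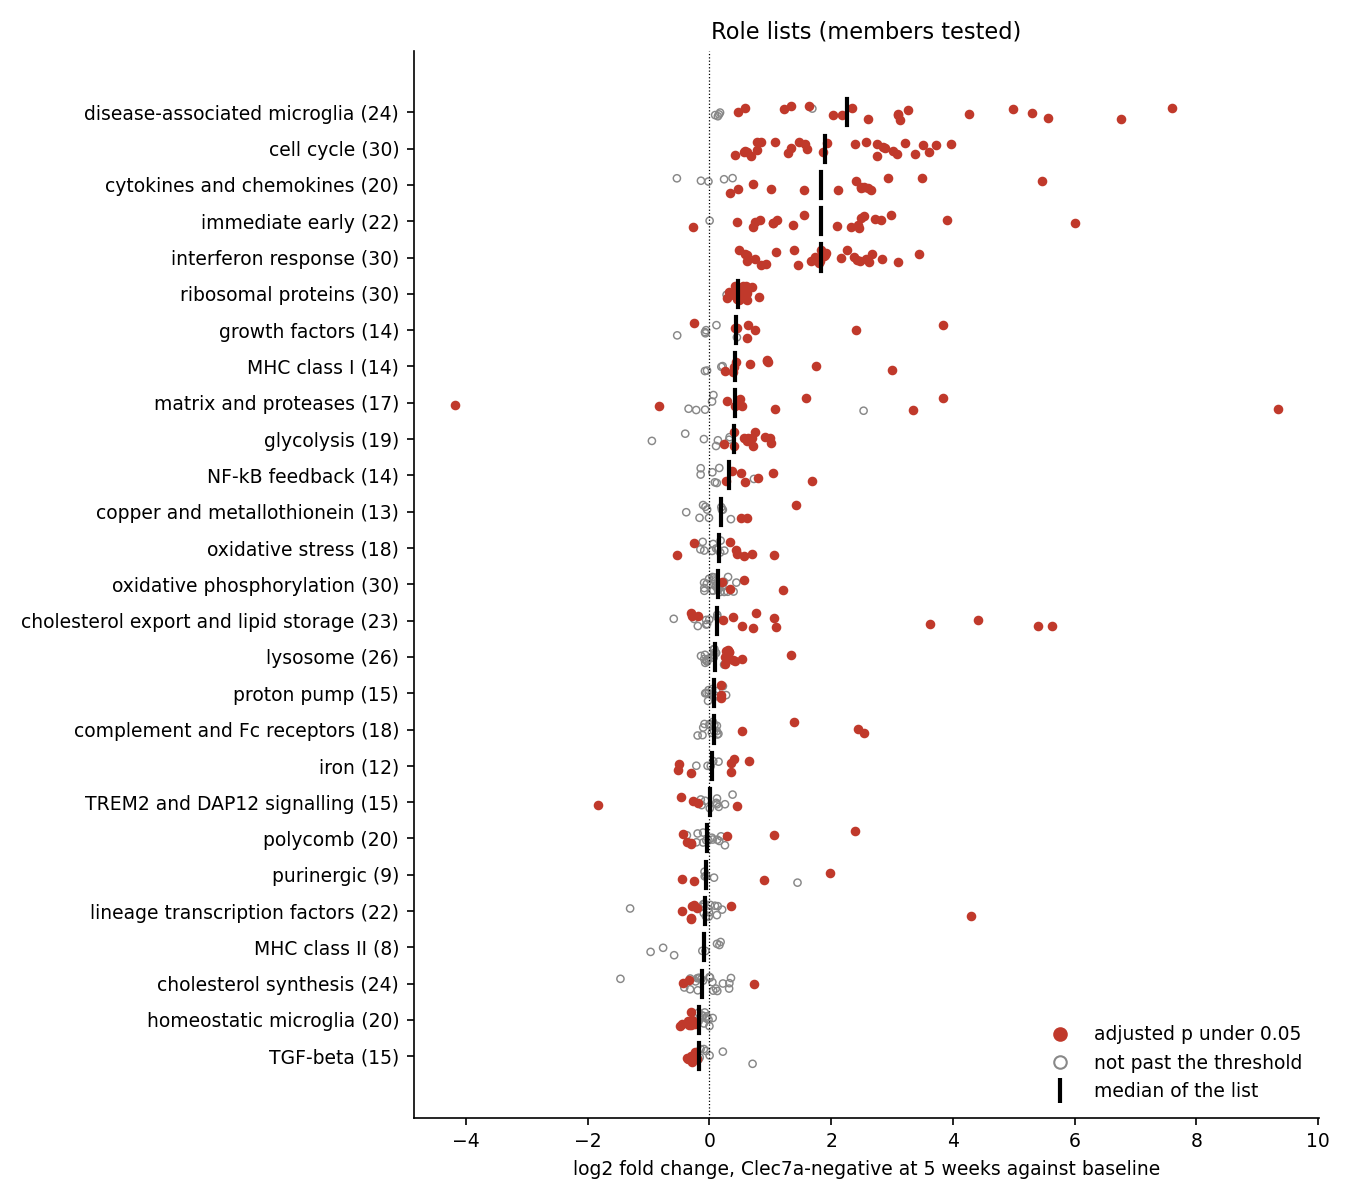
Fitted log2 fold changes of Clec7a-negative over baseline for the tested members of each list, by role. Points are genes, filled where they passed the test, and bars are list medians. Interferon and cell cycle genes all lie to the right of 0, and homeostatic and TGF-beta genes cluster just to the left of it. The fitted values of Cxcl2 and Mmp8, which had no baseline reads, are set by the prior count of the fit.

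**Figure D4:**
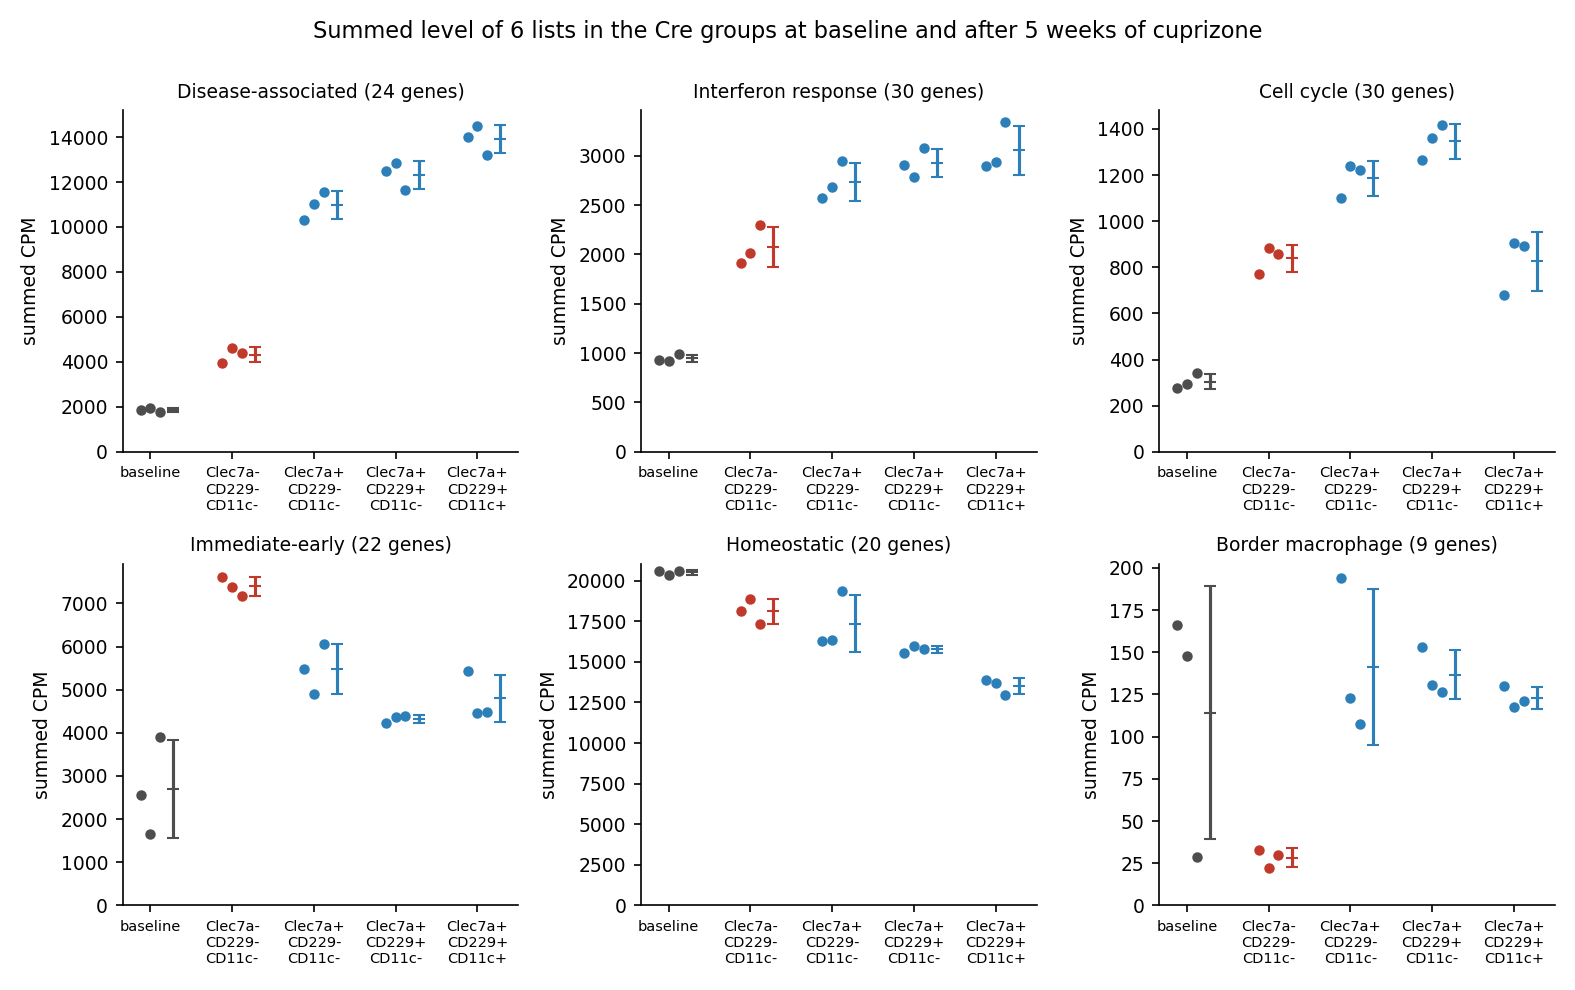
Summed CPM of 6 lists in the 5 groups of Cre libraries (baseline, Clec7a-negative, Clec7a-positive, with CD229, with CD229 and CD11c). Points are libraries, and bars are means ± SD (n = 3). Clec7a-negative cells lie between baseline and the other gates for the disease-associated and interferon lists, and have the highest sum of immediate early genes.

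Markers of other brain and blood cells were checked, since sorted cells can hold a few of them. Markers of macrophages at the borders of the brain differed most. Of 9 such markers 7 fell and 1 rose, with a median of -2.93, and their sum was 166, 148 and 28.5 CPM at baseline and 32.9, 22.1 and 30.1 CPM in Clec7a-negative cells. Baseline library 3 lay within the range of the Clec7a-negative libraries. In the other Cre gates of the same diet the sum was not low. It was 141.4 ± 46.1 CPM (SD, n = 3) in Clec7a-positive cells, 136.8 ± 14.5 CPM with CD229 and 122.7 ± 6.43 CPM with CD229 and CD11c. In libraries labelled Mef2aKO the sum was 28.1, 28.6 and 40.5 CPM at baseline and 8.97 and 13.3 CPM in Clec7a-negative cells. No test was run on these sums. Mrc1, a mannose receptor, was at 99.4, 78.2 and 17.9 CPM at baseline and 19.7, 11.2 and 16.4 CPM in Clec7a-negative cells (-2.04 ± 0.33). F13a1, a coagulation factor gene of such macrophages and the largest fall among genes of at least 5 CPM whose groups did not overlap, was at 19.6, 23.6 and 3.12 CPM and then at 2.05, 1.36 and 1.18 CPM (-3.33 ± 0.50). Lyve1, a hyaluronan receptor, was at 9.39, 7.33 and 0.195 CPM and then at 0.267, 0 and 0.084 CPM. Cd209f, a lectin, had 66 reads at baseline, 0 of them in library 3, and 2 after cuprizone, a ratio of 34.3 with an interval of 9.12 to 289. Without baseline library 3 the fold changes were -2.48 for Mrc1, -3.81 for F13a1 and -5.95 for Lyve1, against -5.39 for Lyve1 with all libraries. With it as the only control 0 of the 9 markers fell (Mrc1 -0.15, adjusted p = 0.863, F13a1 -0.995, adjusted p = 0.368, and Lyve1 -0.60, adjusted p = 0.917). Folr2, a folate receptor and the member that rose (0.64 ± 0.18), lost its call without Clec7a-negative library 3 (adjusted p = 0.0583). The same baseline libraries 1 and 2 held more of the class II genes, Mmp9, Cd93, Tlr8 and Ifi203, and the part of border macrophages in those values was not tested.

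Of the monocyte markers 5 of 8 were too low to be tested, with Chil3 and F10 at 0 in all 6 libraries. Ccr2, a chemokine receptor, was at 32.7, 21.7 and 7.5 CPM and then at 9.71, 8.18 and 11.8 CPM (-1.06 ± 0.28), a call that ended without baseline library 1 (-0.56, adjusted p = 0.146). Plac8 rose from 0.284, 0.094 and 0.097 CPM to 1.16, 1.47 and 2.77 CPM. The neutrophil markers S100a8, S100a9, Ly6g, Retnlg, Mpo and Elane were at 0 in all 6 libraries, and none of the 8 on the list could be tested. T and NK cell markers summed to 0.195 to 2.47 CPM at baseline and 0.178 to 0.588 CPM after cuprizone, and neuronal markers to 3.8 to 6.86 and 3.15 to 3.53 CPM.

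Oligodendrocyte markers summed to 189 to 204 CPM at baseline and 179 to 200 CPM in Clec7a-negative cells, and of 6 tested 1 fell. The count was 0 without Clec7a-negative library 1 and 2 without baseline library 1 or 3. Astrocyte markers summed to 209 to 259 and 135 to 166 CPM. Most of that was Slc1a3, a glutamate transporter, which fell from 234, 229 and 203 CPM to 158, 130 and 134 CPM (-0.65 ± 0.09), while Gfap, the astrocytic filament gene, stayed below 2 CPM in every library. Of 7 astrocyte markers tested 1 rose and 2 fell. The rise was that of Gfap (1.65 ± 0.55), a call that ended without Clec7a-negative library 1 or 3 (adjusted p = 0.174 and 0.0587) or baseline library 1 or 2 (adjusted p = 0.137 and 0.0548). Slc1a2 was high only in baseline library 2 (2.37, 21.1 and 3.12 CPM at baseline), and its fall of 2.06 was 0.37 without that library (adjusted p = 0.572). Among endothelial markers Cldn5, Tek and Ly6c1 were at 0 in all 6 libraries. Flt1, a VEGF receptor, was at 1.61, 2.73 and 1.46 CPM and rose to 31.1, 34 and 38.8 CPM (4.15 ± 0.17), and Pecam1, an adhesion molecule also found on leukocytes, fell by 0.77 ± 0.12. Dendritic cell markers summed to 17.8 to 22 CPM and 14.7 to 16 CPM, and 2 of 6 tested fell, or 0 without baseline library 2 and 1 without baseline library 1 or any 1 Clec7a-negative library. The part of other cells in the results was not tested further.

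The 5-week response was set beside that of WT mice after 4 weeks, whose CD229-negative CD11c-negative cells were not gated on Clec7a. Duration, genotype and gate differ together here and cannot be told apart. Of 12882 genes tested in the joined tables, the responses differed for 81 (0.629%), 42 with a higher and 39 with a lower value in the 5-week Cre response. In WT cells 4024 genes changed (31.2%). Of 2166 genes higher in the Cre response in this fit, 1534 were also higher in WT, which is 70.8% of the Cre and 66.0% of the 2325 WT genes. Of 1655 lower genes 880 were shared, 53.2% of the Cre and 51.8% of the 1699 WT genes. In all, 16 genes higher and 2 lower in Cre had the opposite call in WT. Fold changes of the responses had a Pearson correlation of 0.708 across 12882 genes, which are not independent replicates and share their libraries. The count of 81 was 51 without Clec7a-negative library 1, 47 without Cre baseline library 2, 53 without WT 4-week library 3 and 234 without Cre baseline library 3. The balance of directions changed too, with 89 higher and 214 lower with no filter on low counts, 51 and 81 by DESeq2, 39 and 76 without WT 4-week library 2 and 39 and 14 without WT 4-week library 3.

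Of 22 immediate early genes, 15 had a positive and 0 a negative difference, and 11 to 15 were positive without 1 library. Fosb was at 184, 206.5 and 50.5 CPM in WT baseline cells and at 37.1, 35.5 and 55 CPM after 4 weeks, a fall of 1.79 ± 0.47, where it had risen in Cre cells. The difference of the responses was 7.81 ± 0.77 (adjusted p = 1.23e-08). Klf4 was at 24.2, 30.9 and 18.3 CPM in WT baseline cells and then at 11.4, 11.9 and 17.5 CPM, a difference of 4.77 ± 0.41. Fos and Egr1 did not pass in WT cells (adjusted p = 0.393 and 0.805), with Fos at 558, 594.5 and 382.5 CPM and then at 327, 322 and 430 CPM. The difference was 2.96 ± 0.62 for Fos and 2.90 ± 0.64 for Egr1. The Egr1 call ended without Cre baseline library 1 (adjusted p = 0.0662) or WT baseline library 1 (adjusted p = 0.0564). WT baseline cells thus held more of these transcripts than Cre baseline cells, and treated Cre cells more than treated WT cells. Dusp1, a phosphatase that ends MAP kinase signals, differed by 3.51 ± 0.62 and Klf2, a Krüppel-like factor, by 3.03 ± 0.48. Adamts1 differed by 2.85 ± 0.40 and Nfkbiz by 1.12 ± 0.18.

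Of the 39 genes with a negative difference, 19 were called higher in Cre cells. Axl was at 20, 34.6 and 35 CPM in WT baseline cells and at 441, 447 and 648 CPM after 4 weeks, a rise of 4.10 ± 0.17 against 3.14 ± 0.16 in the same fit for Cre (difference -0.96 ± 0.22). The Axl call ended without Clec7a-negative library 1 (adjusted p = 0.0912), Cre baseline library 1 or 2 (adjusted p = 0.126 and 0.0518), WT 4-week library 3 (adjusted p = 0.135) or WT baseline library 1 (adjusted p = 0.127). Clec7a differed by -0.95 ± 0.18, but only the treated Cre cells were sorted as negative for its protein. Csf1 differed by -0.72 ± 0.15, a call that ended without WT 4-week library 3 (-0.50, adjusted p = 0.0525). In all, 4 of the 24 members of the disease-associated list had a lower and 0 a higher response, the others being Lyz2 and Apoe. The count of 4 was 0 without WT 4-week library 3, 2 without Clec7a-negative library 1, Cre baseline library 1 or 2 or WT baseline library 1, and 6 in the fits without Cre baseline library 3 or WT 4-week library 2. DESeq2 called 7, and 18 had a lower response at an unadjusted p under 0.05. The Lyz2 call ended without Cre baseline library 2 (adjusted p = 0.0689) or WT 4-week library 3 (adjusted p = 0.0525). The Apoe call was kept in 3 of 12 fits without 1 library, those without Cre baseline library 3, WT 4-week library 2 or WT baseline library 3, and its adjusted p reached 0.266 in the others. Ptger4, a prostaglandin E2 receptor, was at 0, 1.14 and 0.774 CPM in WT baseline cells and then at 21.7, 27 and 39.9 CPM, and in Cre it went from 2.19, 2.37 and 2.35 CPM to 17.5, 16.1 and 19.4 CPM (difference -2.53 ± 0.45). Rai14, an actin-linked protein, differed by -1.32 ± 0.28. Snhg20, a small nucleolar RNA host gene, went in opposite directions, from 7.38, 9.64 and 10.4 CPM to 13.8, 13.6 and 15 CPM in WT and from 15.4, 22.2 and 14.8 CPM to 8.93, 8.5 and 8.31 CPM in Cre (difference -1.66 ± 0.24). Of the 30 interferon genes and the 29 cell cycle genes tested, 0 differed by edgeR's test, with medians of -0.24 and -0.04 against -0.01 over all genes. At an unadjusted p under 0.05 there were 7 interferon and 0 cell cycle genes, and DESeq2 called 1 and 0. The interferon count was 2 without Clec7a-negative library 3 or WT 4-week library 2.

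In mice with the floxed Mef2a gene, which encodes a transcription factor of microglia, the same gate was compared with its own baseline. The Mef2a counts do not check the deletion, because they cover the whole gene. They were 876, 794 and 914 CPM in the baseline and 926 and 849 CPM in the treated libraries labelled Mef2aKO. In Cre cells Mef2a was at 1067, 909 and 941 CPM and fell to 835, 804 and 734 CPM (-0.30 ± 0.08). In the libraries labelled Mef2aKO 1036 genes changed (7.85%), 661 of them higher. Of the 2052 genes higher in Cre, 594 were also higher there, which is 28.9% of the Cre genes and 89.9% of those higher in the libraries labelled Mef2aKO. Of the 1756 lower genes 274 were shared, 15.6% of the Cre and 73.1% of the 375 genes. The treated group labelled Mef2aKO had 2 libraries against 3 in Cre, and the counts of genes called rest on these unequal numbers. The correlation of fold changes was 0.552 across 13204 genes.

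The responses differed past the test for 184 genes (1.39%), 175 with a smaller and 9 with a larger value in the libraries labelled Mef2aKO. The count of 184 was 105 without library 1 of the treated group labelled Mef2aKO and 277 without Cre baseline library 3. Of the 175, 172 were called higher in Cre cells. The same Cre libraries enter the difference and the Cre calls, so this overlap is no independent support. Cell cycle genes made up 11 of them, of 30 tested, or 7 without Cre baseline library 2 or without library 1 of the treated group labelled Mef2aKO. Mki67 was at 35.2, 30.8 and 42.8 CPM in the baseline and at 61.2 and 100.1 CPM in the treated libraries labelled Mef2aKO, a difference of -2.57 ± 0.30 (adjusted p = 5.14e-06). Top2a was at 12.4, 13.6 and 21 CPM and then at 33.4 and 40.7 CPM (difference -2.27 ± 0.31). For both genes the baseline level was higher and the treated level lower than in Cre cells. Shcbp1 did not pass there (0.24 ± 0.50, adjusted p = 0.844) and differed by -4.47 ± 0.77, and Kif4 differed by -3.24 ± 0.65, or by -5.004 without Cre baseline library 3.

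Of the disease-associated list 8 members had a smaller response and 0 a larger one, and 5 had a smaller one without library 1 of the treated group labelled Mef2aKO. Spp1 was at 3.44, 3 and 2.13 CPM and then at 26.1 and 36.5 CPM (difference -2.10 ± 0.41). Axl was at 47, 44.7 and 75.3 CPM and then at 186 and 222 CPM (difference -1.25 ± 0.20). Apoe differed by -0.85 ± 0.15, Csf1 by -0.82 ± 0.13 and Lpl by -0.99 ± 0.19. The Lpl call ended without library 1 of the treated group labelled Mef2aKO (adjusted p = 0.054). These genes rose in both genotypes, and the rise was the smaller in the libraries labelled Mef2aKO. Of the 3 gate genes, Clec7a and Itgax had a smaller response, with Clec7a at 39.8, 40.4 and 55.9 CPM and then at 94.1 and 102.9 CPM (difference -1.21 ± 0.17), and Itgax differing by -1.14 ± 0.22. Ly9 was at 58.4, 70.3 and 79.9 CPM and then at 91.2 and 90.4 CPM, and its difference of -0.35 ± 0.20 did not pass (adjusted p = 0.52). Cspg4 reached 14 and 18 CPM against 86.1 to 117.7 CPM in Cre (difference -2.28 ± 0.53), and Bhlhe40 differed by -2.01 ± 0.44. Both calls ended without baseline library 3 of the group labelled Mef2aKO (-1.57, adjusted p = 0.263, and -1.59, adjusted p = 0.103). Fn1 reached 89.4 and 171 CPM, and its difference of -2.56 ± 0.75 did not pass (adjusted p = 0.0847). It passed without treated library 2 (adjusted p = 0.00724) or baseline library 3 (adjusted p = 0.0371) labelled Mef2aKO, or without Cre Clec7a-negative library 1 (adjusted p = 0.0376).

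Smaller responses were also called for 4 of 30 interferon genes, Oas1a (-1.35 ± 0.22), Usp18, a negative regulator of interferon signalling (-0.93 ± 0.23), Stat2 (-0.42 ± 0.11) and Sp100, a nuclear body protein (-0.70 ± 0.16). The count of 4 was 1 without Cre Clec7a-negative library 3 or treated library 1 labelled Mef2aKO, and 2 without Cre baseline library 2. DESeq2 called 7, and 19 had a smaller response at an unadjusted p under 0.05. The Oas1a call held in all fits without 1 library. The Usp18 and Stat2 calls each held in 5 of 11 such fits, and the Sp100 call in 8, ending without treated library 1 or baseline library 3 labelled Mef2aKO or Cre Clec7a-negative library 3 (adjusted p = 0.0973, 0.0525 and 0.0631). The median difference of that list was -0.52, that of the cell cycle list -1.05 and that of the disease-associated list -0.53, against -0.01 over all genes. Of 22 immediate early genes 1 (4 without Cre baseline library 3, 2 without baseline library 3 labelled Mef2aKO), Egr2, differed (-1.25 ± 0.26), a call that ended without treated library 1 labelled Mef2aKO (adjusted p = 0.0625). Plin2 was 0.15 ± 0.14 (adjusted p = 0.613) in the libraries labelled Mef2aKO and did not pass, a difference of -0.94 ± 0.19. Among the 9 larger values was Pde2a, a phosphodiesterase, which was at 134, 174 and 119 CPM in Cre baseline cells and fell to 80.5, 77.6 and 81.1 CPM. It stood at 155, 164 and 161 CPM and then at 134 and 161 CPM in the libraries labelled Mef2aKO (difference 0.72 ± 0.16). The call ended without treated library 2 labelled Mef2aKO (0.57, adjusted p = 0.122) or Cre baseline library 2 (0.55, adjusted p = 0.0581).

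**Figure D5:**
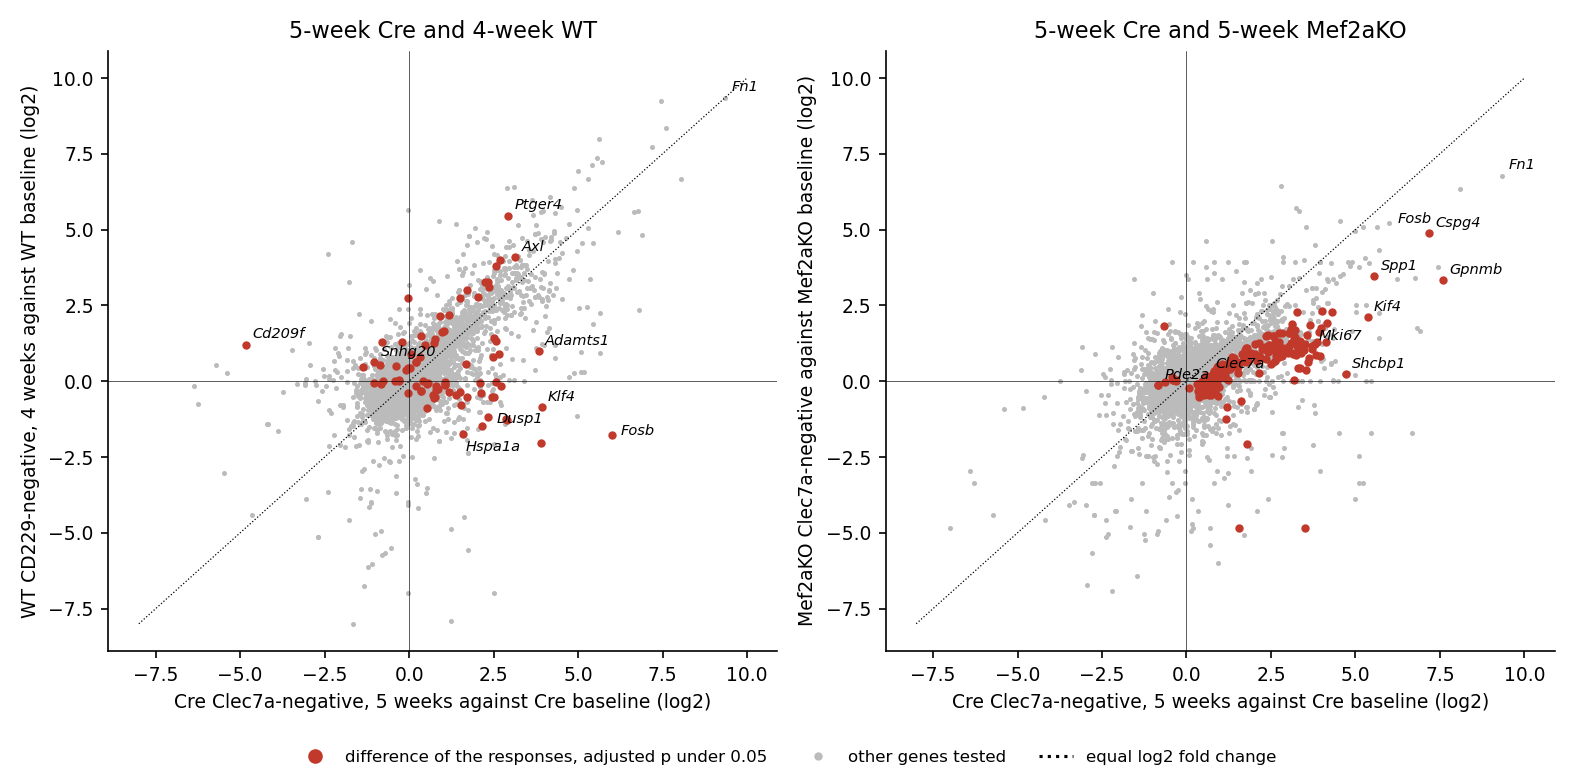
Log2 fold changes of the 5-week Cre response on the horizontal axis against those of the 4-week WT response (left) and the 5-week response of libraries labelled Mef2aKO (right). Each point is a gene, and coloured points are those whose responses differed past the test. Immediate early genes such as Fosb and Klf4 lie far from the diagonal on the left, and Mki67 and Shcbp1 lie on the side of the larger Cre response on the right.

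A change of gate without a change of diet was available in baseline mice labelled Mef2aKO, where CD229-negative CD11c-negative cells were sorted beside ungated cells. Of 12628 genes 1 differed (0.00792%) by edgeR's test, and 343 had an unadjusted p under 0.05. DESeq2 also called 1 gene, with 263 under that unadjusted p. The gene was Ly9, which encodes CD229 itself, at 58.5, 70.6 and 80.6 CPM in ungated cells and 35.2, 18.3 and 17.5 CPM in CD229-negative cells (-1.57 ± 0.21, adjusted p = 0.0182). Its call ended without CD229-negative library 2 or 3 or without ungated library 2. In the 5-week Cre comparison Ly9 differed in the other direction. This baseline gate did not include Clec7a, and 2 of its 3 libraries carry a PE150 tag in their titles, whose meaning the labels do not give.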

How the data were processed

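Polyadenylated RNA from sorted microglia had been sequenced with strand-specific libraries, per the labels. The authors deposited tables of raw read counts per gene, and their processing notes name HOMER 4.11, the aligner STAR 2.7.0f, the trimmer fastp 0.20.0 and the build mm10 (GRCm38), as well as DESeq2. The 29 libraries of the 5-week table held 5959509 to 13972985 counted reads, and depth limits what low genes can show.

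Counts were tested here with edgeR 4.0.16 (R 4.3.3, limma 3.58.1): filterByExpr by group, TMM, glmQLFit and glmQLFTest with 1 mean for each of 10 groups and 19 residual degrees of freedom. Benjamini-Hochberg adjustment ran over all genes tested, with a threshold of 0.05. Differences of responses were contrasts in 1 fit, joined to the WT 4-week table by shared transcript for that comparison. Scripts were tested on simulated data. Alternatives were RLE scaling, no filter on low counts, DESeq2 1.42.0, fits without 1 library, a replicate block, the compared groups alone and, chosen after seeing the data, baseline library 3 as the only control.

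Gene lists (27 by role, 10 of cell markers) and all members were chosen with earlier results of these data known. Named genes were the gate genes and Cx3cr1, the 15 largest rises and falls at 5 CPM or more without overlap between libraries, the 10 largest in CPM, up to 5 members of each list by adjusted p and up to 3 by level, called markers, and the 8 largest differences each way, to which the rule on overlap was not applied. Other members are named from the lists, and some members are counted but not reported by name here. Reads of close paralogs, such as H2 genes, Hspa1a and Hspa1b, or Ifit3 and Ifit3b, may be split between copies.

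Replicate numbers were not treated as pairs, because deviations of same-numbered libraries did not all move together. Promoters were matched by symbol to RefSeq.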

Additional observations from a re-analysis of the deposited data

Results flagged for a closer look

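The results below stood out because the test of the difference between responses itself passed. The 5-week Cre and 4-week WT responses differed for 81 genes. The difference was 7.81 for Fosb, 4.77 for Klf4, 3.62 for the heat shock gene Hspa1a, -2.53 for Ptger4, -2.08 for the phospholipase gene Pla2g7 and -1.66 for Snhg20. The Hspa1a call ended without Clec7a-negative library 1, Cre baseline library 1 or 2, WT 4-week library 3 or WT baseline library 2 (adjusted p from edgeR's quasi-likelihood test 0.0638 to 0.108), and its value was 6.02 without Cre baseline library 3. Hspa1a can share reads with its copy Hspa1b. The Pla2g7 call ended in 10 of 12 fits without 1 library, with adjusted p up to 0.274.

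The responses of the libraries labelled Mef2aKO and of Cre cells differed for 184 genes. The difference was 0.72 for Pde2a, 0.71 for the zinc finger gene Zfp974, 0.59 for the adaptor gene Cass4, -4.47 for Shcbp1, -4.26 for Gpnmb and -3.24 for Kif4. The calls of Pde2a and Zfp974 each ended in 2, that of Cass4 in 6 and that of Gpnmb in 7 of 11 fits without 1 library. The Shcbp1 and Kif4 calls were kept in all of them.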

How the results depend on the processing

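The main count of 3808 genes kept within 1.5 times of its value with RLE scaling (3798), no filter (3718), DESeq2 (3810), a replicate block (3925), the compared groups alone (3001) or those with the block (3971), and ran from 2671 to 4351 without 1 library, the extremes being without baseline library 1 and without baseline library 3. Of the 3808 genes 98.7% were also called with RLE scaling, 98.0% with DESeq2 and 87.1% with no filter. With baseline library 3 as the only control, chosen after seeing the data, 1237 genes passed, 1178 of them shared with the 3808. The share of higher genes was 53.9%, and 62.5% with no filter, 61.8% without Clec7a-negative library 3 and 77.8% with that single control. Under it the fold changes of Ccr2 (0.43), Cd163 (0.73), Cd209a (2.01), Cd209f (2.54), Cd74 (0.93) and Ms4a4a (0.78) reversed. Of 259 genes followed, 207 were called, and 132 of these kept their call in each of the 13 settings in which they were tested. Some of the 259 genes were not tested in the fits of the compared groups alone.

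The difference to the 4-week WT response gave 303 genes with no filter, 132 with DESeq2 and 47 to 234 without 1 library. The difference between genotypes gave 440, 285 and 105 to 277, and 210 with the replicate block. The baseline gate comparison gave 21 genes with no filter, 0 to 1 without 1 library and 0 with the replicate block. Deviations of same-numbered libraries correlated at 0.18, 0.003 and 0.091, and baseline library 2 correlated best with Clec7a-negative library 3 (0.037), so the numbers were not taken as pairs. Causes of these shifts were not tested. Leaving out 1 of 2 treated libraries labelled Mef2aKO assumes that the remaining one varies like the other groups. The median of the cytokine list is 1.83 also with Cxcl2 at its bound.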
